A study of Bos taurus with 31 samples.

Results

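The genes described here encode axon guidance ligands and their receptors, as measured in mammary epithelial organoids of dairy cows. They were chosen by name: every row whose symbol begins with SLIT, ROBO, NTN, UNC5, SEMA, PLXN, EFNA, EFNB, EPHA or EPHB and goes on with the letter or digit of a family member, together with NRP1, NRP2 and DCC where listed, and without the endothelial receptor ROBO4. The choice gave 62 genes of the 14084 rows of the count table, 33 ligands and 29 receptors. It went by name and not by a measured value, though earlier results of these data were known. UNC50 shares the letters UNC5 but is no netrin receptor and was left out of every count; its log2 fold change was -0.15 ± 0.11 (SE; adjusted p from edgeR = 0.236).

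Organoids here are clumps of epithelium that remain after enzymatic digestion and repeated short spins of biopsy tissue, and their pellets went into lysis reagent with no culture step in the protocol. RNA was sequenced from 15 libraries of virgin animals aged 14 months and 16 libraries of lactating animals at 40 to 60 days in milk. There were 31 libraries of 16 cows, with both stages for 15 cows, and no allele, strain or agent is named in the labels for either group. A library is called by the letter of its stage and the number of its cow, so that V502 and L502 belong to 1 animal. Each lactating biopsy was taken later in life and after calving, so stage cannot be told apart from age, parity and time of sampling.

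Axon guidance cues are secreted or membrane-bound proteins first known for steering growing nerve fibres, and all of these families also act outside the nervous system. SLIT proteins signal through ROBO receptors, netrins through DCC, neogenin and UNC5 receptors, semaphorins through plexins with neuropilins as co-receptors, and ephrins through Eph receptor tyrosine kinases on neighbouring cells, where the membrane-bound ephrin can also signal back. In the mammary gland SLIT and ROBO proteins and netrin are known from work on how the basal and luminal epithelial layers adhere and branch, and neuropilins, PLXND1, UNC5B and EPHB4 are also well-known endothelial receptors.

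Total counts per library were 20128378 to 60114505 in virgin and 26827018 to 72138358 in lactating samples. With each counted locus taken once they were 12477568 to 38794104 and 17637505 to 45478555. Expression is given as CPM, the counts set relative to the TMM-scaled library total. That total was taken over all rows that passed the filter on low counts, with identical rows each counted. The organoids carried RNA of other cell types in amounts that differed between stages. All 14 endothelial markers were higher in lactation, with a summed level of 35.0 to 834 CPM (median 163) in virgin and 283 to 1938 CPM (median 988) in lactating libraries, lowest in L478. Of the macrophage markers 9 of 10 rose, of the lymphocyte markers 7 of 7 tested, and of the luminal epithelial markers 2 rose and 7 fell among 12. Of 5 adipocyte markers tested 3 rose and 1 fell, with a summed median of 19.6 CPM in virgin and 426 CPM in lactating libraries. Among the myoepithelial and basal markers 2 of 10 rose and 3 fell. The fibroblast markers, 2 of 10 higher and 5 lower, summed to 21812 CPM in V502, against at most 2503 CPM in every other virgin library and 1748 CPM in lactation. V502 was also the highest virgin library for 16 of the 58 members tested, and V479 for another 16. Of the Schwann cell and neuron markers 5 passed the filter on low counts, and of these S100B and SOX10, which epithelium can also express, were higher, NEFM was lower and 2 were not called.

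Of the 62 genes, 58 passed the filter on low counts and were tested. EFNB3 (339 counts over all libraries), EPHA6 (222), UNC5D (168) and EPHA10 (164) did not pass. In lactation 19 of the 58 were higher and 17 lower (adjusted p under 0.05 in edgeR's quasi-likelihood test), against 24.2% of all 13180 tested rows called higher and 30.9% called lower. These are 32.8% and 29.3% of the members, with a median log2 fold change (lactating minus virgin throughout) of -0.02, 28 positive and 30 negative. The 32 ligands split into 10 higher and 8 lower, and the 26 receptors into 9 and 9. This fit kept rows with identical counts. With identical rows taken once 17 members were higher and 17 lower, beside 2970 and 3900 of 12472 rows, and EPHA2 and PLXNB2 were not called. In bulk RNA, fewer cells of a type and less RNA per cell cannot be told apart.

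Few members passed a test of the size of the change. Changes of more than 2-fold (glmTreat, adjusted p under 0.05) were found for 2 members upward, SEMA3A and SEMA6B, and 5 downward, SLIT1, EPHB1, EPHB2, EFNA5 and SEMA4F. With V502 left out 7 members passed upward, NRP1, PLXNC1, SEMA5A, UNC5C and SEMA3D being added. The share of all rows passing without V502 was not counted, so these 7 have no background beside them. In the fit of all libraries 5.39% of all tested rows passed that test upward and 2.8% downward. With all libraries kept, the share of the 58 members was below that of all rows upward and above it downward. UNC5B, SEMA6B and NRP1 were higher in all 15 animals (7.41% of all rows) and SLIT1, SEMA4F, EPHB2 and EPHB1 lower in all 15 (5.52% of all rows). No member had a lactating range wholly above the virgin one (1.15% of all rows), and SLIT1 and EPHB2 had one wholly below it (0.781% of all rows). Without TMM scaling factors 7 of the 19 rises and 17 of the 17 falls were still called, in a fit where 10.5% of all rows were called higher and 58.8% lower. With the animal as a block, where 27.9% of all rows were called higher and 27.8% lower, 24 members were higher and 15 lower.

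**Figure D1:**
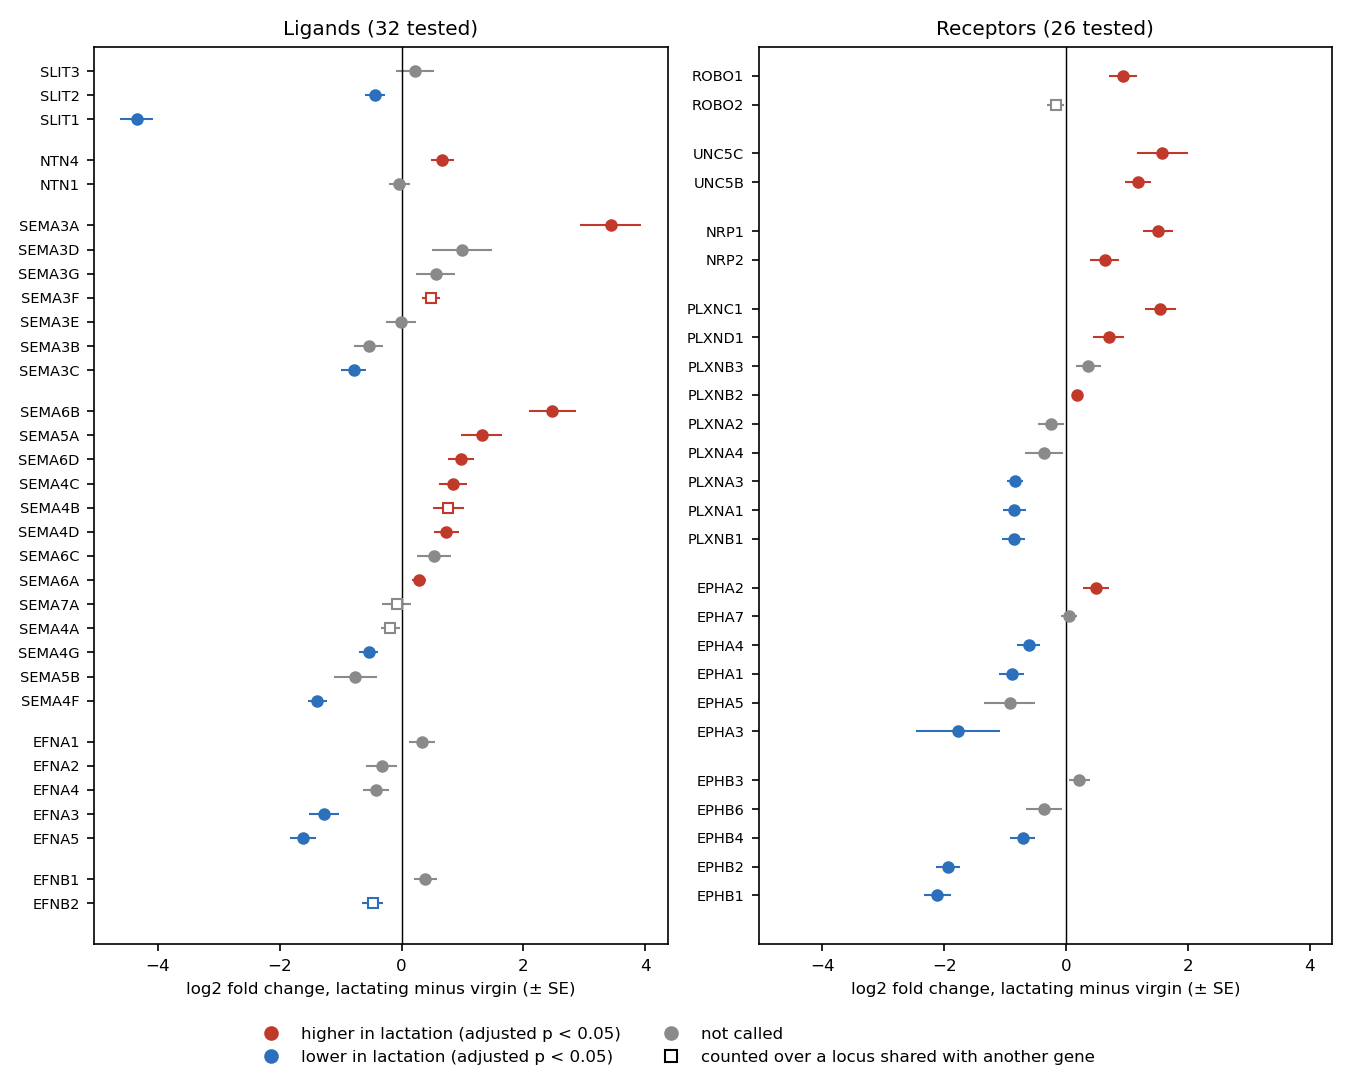
Log2 fold change of each of the 58 tested members (horizontal axis, lactating minus virgin, bar ± SE), ligands on the left and receptors on the right, grouped by family. SLIT1 lies farthest to the left at -4.35 and SEMA3A farthest to the right at 3.43; open squares mark loci shared with another gene, and 12 of the 19 rises were not called without scaling factors.

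SLIT1 fell most of all members, while the other SLIT ligands changed little. SLIT1 (ENSBTAG00000043991), a secreted repellent cue studied mainly in brain, was measured at 2.33 to 9.47 CPM (median 4.61) in virgin and 0.0362 to 0.490 CPM (median 0.184) in lactating libraries. Every lactating library lay below the lowest virgin one, V502, and the raw counts were 64 to 413 in virgin and 1 to 18 in lactating libraries. The log2 fold change was -4.35 ± 0.27 (SE; adjusted p from edgeR = 1.09e-13), or 20.4-fold lower, with a fall in 15 of 15 animals. In the authors' deposited table, whose log2 fold changes are coded virgin minus lactating, SLIT1 stood at 4.33 with an adjusted p of 1.83e-55. Of the 36 members called here, 13 had an adjusted p under 0.05 in the authors' deposited table, all in the same direction, and 18, SLIT2 among them, had an adjusted p of 1.

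SLIT2, a SLIT known from the branching of mammary ducts, was measured at 13.1 to 44.8 CPM (median 30.1) in virgin and 13.6 to 38.8 CPM (median 21.3) in lactating libraries. The ranges overlapped almost wholly and 10 of 15 animals fell, with a log2 fold change of -0.44 ± 0.16 (SE; adjusted p from edgeR = 0.0208); with the animal as a block it was -0.39 and no longer called (adjusted p from edgeR = 0.0530). SLIT3, which is also made by stromal and endothelial cells, was measured at 1.58 to 53.2 CPM (median 12.1) in virgin and 6.86 to 29.0 CPM (median 16.5) in lactating libraries. V502 alone exceeded the lactating range, and the log2 fold change was 0.22 ± 0.31 with all libraries and 0.55 without V502, called in neither fit (adjusted p from edgeR = 0.563 and 0.0783). SLIT3 followed the endothelial marker level across the 15 virgin libraries, with r = 0.89 (adjusted permutation p = 0.000483), rho = 0.80 (adjusted permutation p = 0.00566) and r = 0.75 without the 2 farthest libraries.

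The ROBO receptors did not move together. ROBO1, the receptor shared by the SLIT ligands, was measured at 1.48 to 12.4 CPM (median 4.42) in virgin and 4.29 to 16.6 CPM (median 9.31) in lactating libraries, and 13 of 15 animals rose. Most lactating libraries lay inside the virgin range, 2 lay above it, and the log2 fold change was 0.94 ± 0.23 (SE; adjusted p from edgeR = 0.000727); without scaling factors it was 0.39 and not called (adjusted p from edgeR = 0.150). In lactating libraries ROBO1 followed the endothelial level with r = 0.72 (adjusted permutation p = 0.00564), rho = 0.62 (adjusted permutation p = 0.0369) and r = 0.45 without the 2 farthest libraries, counted from the median of that level. ROBO2, listed with counts identical to a row that has only an identifier, was measured at 7.38 to 20.8 CPM (median 12.9) in virgin and 6.58 to 16.1 CPM (median 10.8) in lactating libraries. Its animals split into 7 higher and 8 lower, with a log2 fold change of -0.17 ± 0.14 (SE; adjusted p from edgeR = 0.289).

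**Figure D2:**
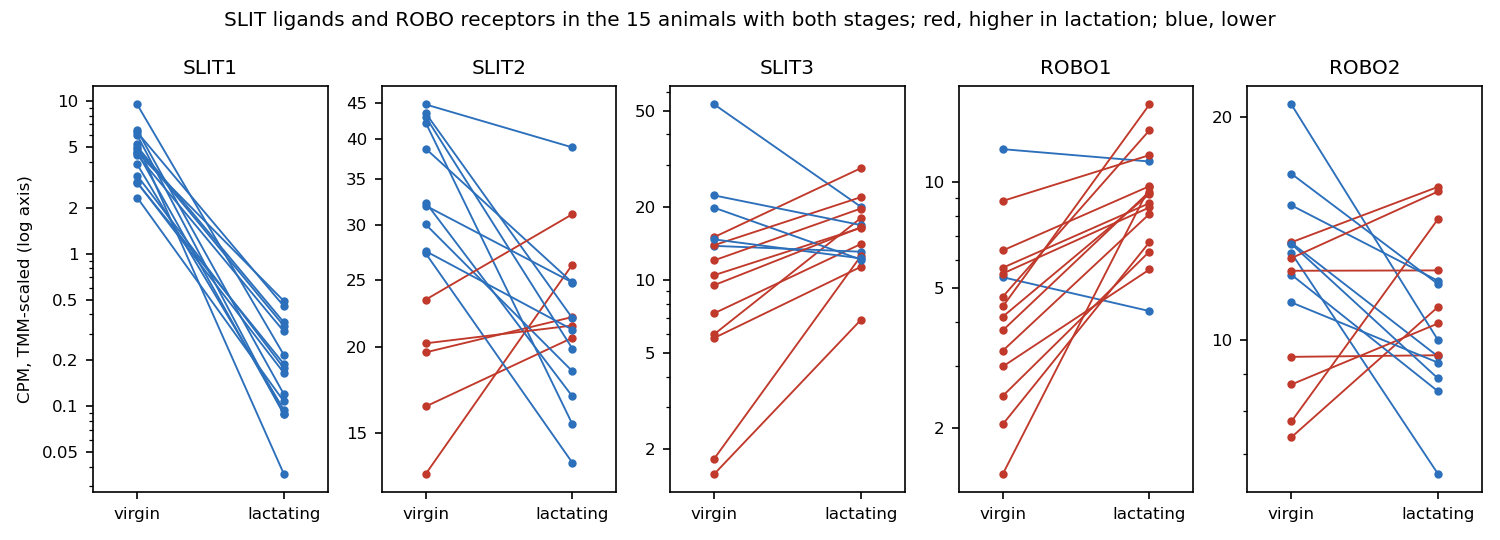
CPM (log axis) of the SLIT ligands and ROBO receptors in the 15 animals with both stages, each line joining the virgin and lactating library of 1 animal. All 15 lines of SLIT1 fall, 10 of 15 lines of SLIT2 fall, and 13 of 15 lines of ROBO1 rise.

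In the netrin family 3 of 4 tested members were higher and 0 lower, against 24.2% and 30.9% of all rows. Without scaling factors, where 10.5% of all rows were higher, 2 of 4 were higher. NTN1, the netrin whose loss loosens the layers of the mouse end bud, was measured at 37.6 to 139 CPM (median 59.4) in virgin and 38.4 to 111 CPM (median 56.5) in lactating libraries. The ranges were nearly the same, and the log2 fold change was -0.04 ± 0.17 (SE; adjusted p from edgeR = 0.872). Across lactating libraries NTN1 ran against the endothelial level, with r = -0.91 (adjusted permutation p = 0.000342), rho = -0.81 (adjusted permutation p = 0.00251) and r = -0.80 without the 2 farthest libraries. NTN4, a netrin of basement membranes, was measured at 3.1 to 15.8 CPM (median 4.43) in virgin and 6.16 to 13.0 CPM (median 8.86) in lactating libraries. Its lactating libraries lay within the virgin range, which ends at V502; the next virgin library held 8.74 CPM, and the log2 fold change was 0.67 ± 0.18 (SE; adjusted p from edgeR = 0.00262), not called without scaling factors (0.17, adjusted p = 0.467).

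UNC5B, a netrin receptor of endothelial tip cells that is also found in epithelium, was measured at 5.87 to 33.1 CPM (median 16.8) in virgin and 19.5 to 61.0 CPM (median 39.1) in lactating libraries. It rose in 15 of 15 animals and 9 lactating libraries lay above the virgin range, with a log2 fold change of 1.18 ± 0.21 (SE; adjusted p from edgeR = 2.33e-05). UNC5B followed the endothelial level in lactating libraries with r = 0.79 (adjusted permutation p = 0.00174), rho = 0.69 (adjusted permutation p = 0.0166) and r = 0.81 without the 2 farthest libraries. UNC5C, a dependence receptor for netrin, was measured at 0 to 1.02 CPM (median 0.139) in virgin and 0.146 to 1.57 CPM (median 0.657) in lactating libraries and rose by 1.58 ± 0.42 (SE; adjusted p from edgeR = 0.00201), in 13 of 15 animals. DCC and UNC5A were not analysed here.

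Of 20 tested semaphorin ligands 9 were higher and 3 lower, against 24.2% and 30.9% of all rows. Without scaling factors 3 were higher and 8 lower, where 10.5% of all rows were higher and 58.8% lower. SEMA3A (ENSBTAG00000018133), a secreted repellent that binds NRP1, rose most of all members and was measured at 0.109 to 4.22 CPM (median 0.649) in virgin and 0.789 to 36.1 CPM (median 11.3) in lactating libraries. The lactating libraries were widely spread: 11 of 16 lay above the virgin range, the lowest was L538 and the highest L479. The log2 fold change was 3.43 ± 0.51 (SE; adjusted p from edgeR = 1.18e-06), or 10.8-fold, with a rise in 14 of 15 animals. SEMA3A followed the endothelial level in lactating libraries with r = 0.85 (adjusted permutation p = 0.000483), rho = 0.76 (adjusted permutation p = 0.00755) and r = 0.74 without the 2 farthest libraries.

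Among the other secreted semaphorins 1 rose and 1 fell. SEMA3F, which binds NRP2, was measured at 47.0 to 145 CPM (median 65.5) in virgin and 66.5 to 174 CPM (median 105) in lactating libraries and rose by 0.49 ± 0.15 (SE; adjusted p from edgeR = 0.00545); its row carries the counts of GNAT1 as well, so the genes cannot be told apart. SEMA3C, a ligand of both neuropilins, was measured at 5.19 to 39.6 CPM (median 20.2) in virgin and 7.40 to 21.2 CPM (median 12.6) in lactating libraries and fell in 14 of 15 animals, with a log2 fold change of -0.78 ± 0.21 (SE; adjusted p from edgeR = 0.00181). SEMA3E, the ligand of PLXND1, was measured at 4.41 to 32.8 CPM (median 14.8) in virgin and 6.28 to 28.0 CPM (median 15.0) in lactating libraries, with overlapping ranges and a log2 fold change of -0.01 ± 0.24 (SE; adjusted p from edgeR = 0.970). SEMA3D, at 0.164 to 7.16 CPM (median 0.362) in virgin and 0.218 to 3.83 CPM (median 1.96) in lactating libraries, had a log2 fold change of 0.99 ± 0.49 (SE; adjusted p from edgeR = 0.0892) with all libraries and of 1.89 without V502 (adjusted p = 8.31e-05). With V502 kept, SEMA3D was called with the animal as a block (1.36, adjusted p = 0.00629) and with limma-voom (1.32, adjusted p = 0.0150). SEMA3G and SEMA3B had log2 fold changes of 0.56 ± 0.32 and -0.54 ± 0.24 and were not called (adjusted p from edgeR = 0.136 and 0.0551). SEMA3G was called higher without V502 (0.76, adjusted p from edgeR = 0.0312) and with limma-voom (0.87, adjusted p = 0.0172). SEMA3B was called lower with DESeq2 (-0.55, adjusted p = 0.0441) and in 8 of the 31 fits that left out 1 library.

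Of the 13 membrane-bound semaphorins 7 were higher and 2 lower, against 24.2% and 30.9% of all rows. SEMA6B (ENSBTAG00000031658), a transmembrane ligand of class A plexins, was measured at 0.202 to 7.16 CPM (median 1.58) in virgin and 3.50 to 24.7 CPM (median 10.1) in lactating libraries. It rose in 15 of 15 animals, 12 lactating libraries lay above the virgin range, and the log2 fold change was 2.47 ± 0.39 (SE; adjusted p from edgeR = 2.96e-06). SEMA6B followed the endothelial level within both stages. Across virgin libraries the values were r = 0.93 (adjusted permutation p = 0.000342), rho = 0.93 (adjusted permutation p = 0.000740) and r = 0.92 without the 2 farthest libraries. Across lactating libraries they were r = 0.96 (adjusted permutation p = 0.000342), rho = 0.94 (adjusted permutation p = 0.000444) and r = 0.93 without the 2 farthest libraries.

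SEMA5A, a semaphorin with thrombospondin repeats, was measured at 2.97 to 71.9 CPM (median 9.12) in virgin and 15.4 to 68.7 CPM (median 31.5) in lactating libraries. V502 held the highest value of all libraries, next to at most 21.7 CPM in the other virgin libraries, and the log2 fold change was 1.31 ± 0.34 (SE; adjusted p from edgeR = 0.00163) with V502 and 1.84 without it. SEMA4D, a ligand of PLXNB1, was measured at 18.2 to 49.0 CPM (median 28.2) in virgin and 24.6 to 110.2 CPM (median 38.0) in lactating libraries. Its highest value was in L538, 6 lactating libraries lay above the virgin range, and the log2 fold change was 0.74 ± 0.21 (SE; adjusted p from edgeR = 0.00361). SEMA4D ran opposite to the endothelial level in lactating libraries, with r = -0.97 (adjusted permutation p = 0.000342), rho = -0.91 (adjusted permutation p = 0.000444) and r = -0.94 without the 2 farthest libraries.

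SEMA6D and SEMA4C, both transmembrane, rose by 0.98 ± 0.21 and 0.84 ± 0.23 in 14 of 15 animals each (adjusted p from edgeR = 0.000245 and 0.00284). SEMA6A, a ligand of PLXNA2 and PLXNA4, rose by 0.29 ± 0.12 (SE; adjusted p from edgeR = 0.0397) with scaling factors, a call lost in 14 of the 31 fits that left out 1 library, and stood at -0.19 without them. SEMA4B rose by 0.77 ± 0.26 (SE; adjusted p from edgeR = 0.0126), on counts shared with NGRN and GDPGP1; without L478 and L538 its value was 0.43 and not called (adjusted p = 0.0945). SEMA7A, anchored to the membrane by lipid, was measured at 68.4 to 419 CPM (median 121) in virgin and 79.2 to 234 CPM (median 139) in lactating libraries on counts shared with CYP11A1, and its log2 fold change was -0.08 ± 0.24 (SE; adjusted p from edgeR = 0.798). SEMA4A, on counts shared with SLC25A44 and LMNA, was measured at 639 to 2189 CPM (median 904) in virgin and 543 to 1501 CPM (median 783) in lactating libraries, so that the value cannot be assigned to the semaphorin. Its log2 fold change was -0.19 ± 0.16 (SE; adjusted p from edgeR = 0.321).

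SEMA4F was the membrane-bound semaphorin that fell by more than 2-fold. This transmembrane ligand, studied at synapses and on Schwann cells, was measured at 11.5 to 26.1 CPM (median 19.4) in virgin and 4.85 to 15.6 CPM (median 6.48) in lactating libraries. In lactation 13 of 16 libraries lay below the virgin range, the highest being L478, and all 15 animals fell, with a log2 fold change of -1.38 ± 0.16 (SE; adjusted p from edgeR = 1.73e-08). SEMA4F was lower in lactating libraries with a higher endothelial level, with r = -0.87 (adjusted permutation p = 0.000483), rho = -0.77 (adjusted permutation p = 0.00533) and r = -0.70 without the 2 farthest libraries. SEMA4G fell by a smaller amount, from a median of 1.96 to 1.22 CPM, with a log2 fold change of -0.54 ± 0.16 (SE; adjusted p from edgeR = 0.00447). SEMA6C and SEMA5B had log2 fold changes of 0.53 ± 0.29 and -0.76 ± 0.35 and were not called (adjusted p from edgeR = 0.113 and 0.0684), though SEMA6C was with the animal as a block (0.66, adjusted p = 0.0468). SEMA5B was called lower in 5 of the 31 fits that left out 1 library, and stood at -0.21 without V502.

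Both neuropilins were higher in lactation. NRP1 (ENSBTAG00000019866), co-receptor of SEMA3A and of vascular endothelial growth factor, was measured at 10.3 to 115 CPM (median 31.4) in virgin and 49.2 to 196 CPM (median 113) in lactating libraries. It rose in 15 of 15 animals and 7 lactating libraries lay above V502, the highest virgin one; 114.7 CPM in V502 stood beside at most 59.5 CPM in the other virgin libraries. The log2 fold change was 1.51 ± 0.25 (SE; adjusted p from edgeR = 5.68e-06), and the test for a change over 2-fold gave an adjusted p of 0.0631. NRP1 followed the endothelial level in lactating libraries, with r = 0.97 (adjusted permutation p = 0.000342), rho = 0.92 (adjusted permutation p = 0.000444) and r = 0.95 without the 2 farthest libraries. NRP2, the co-receptor of SEMA3F, was measured at 9.33 to 81.4 CPM (median 28.9) in virgin and 25.8 to 92.2 CPM (median 55.3) in lactating libraries. It rose in 12 of 15 animals by 0.64 ± 0.24 (SE; adjusted p from edgeR = 0.0242), and was at 0.05 and not called without scaling factors (adjusted p = 0.869).

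Of the 9 plexins 3 rose and 3 fell, against 24.2% and 30.9% of all rows. PLXNC1, the receptor of SEMA7A, was measured at 0.273 to 3.34 CPM (median 0.901) in virgin and 1.63 to 4.55 CPM (median 2.75) in lactating libraries and rose in 14 of 15 animals by 1.55 ± 0.26 (SE; adjusted p from edgeR = 6.13e-06). V502 alone among the virgin libraries reached into the lactating range, the next holding 1.49 CPM. PLXNC1 in lactating libraries had r = -0.50 and rho = -0.56 with the endothelial level (adjusted permutation p = 0.0998 and 0.0736). PLXND1, the endothelial receptor of SEMA3E, was measured at 3.72 to 38.1 CPM (median 7.88) in virgin and 7.88 to 25.5 CPM (median 16.2) in lactating libraries and rose by 0.70 ± 0.25 (SE; adjusted p from edgeR = 0.0181), or by 1.01 without V502. PLXNB2, an epithelial plexin, was measured at 59.1 to 103 CPM (median 73.2) in virgin and 69.6 to 101 CPM (median 83.5) in lactating libraries; its log2 fold change of 0.18 ± 0.08 (SE; adjusted p from edgeR = 0.0471) lost its call in 23 of the 31 fits that left out 1 library and with the animal as a block (0.21, adjusted p = 0.0555).

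PLXNA1, PLXNA3 and PLXNB1 fell by similar amounts. PLXNA3 was measured at 7.64 to 16.1 CPM (median 9.70) in virgin and 3.77 to 9.18 CPM (median 5.80) in lactating libraries, and 14 of 16 lactating libraries lay below the virgin range. PLXNB1, the SEMA4D receptor, was measured at 21.9 to 62.2 CPM (median 29.0) in virgin and 9.41 to 38.5 CPM (median 15.2) in lactating libraries, with 13 of 16 below. PLXNA1 was measured at 5.04 to 21.8 CPM (median 10.9) in virgin and 3.07 to 9.36 CPM (median 6.15) in lactating libraries, with 4 of 16 below. The log2 fold changes were -0.84 ± 0.13, -0.86 ± 0.19 and -0.85 ± 0.19 (adjusted p from edgeR = 2.26e-06, 0.000356 and 0.000293), in 14, 14 and 13 of 15 animals. PLXNA2, PLXNA4 and PLXNB3 were not called, with log2 fold changes of -0.25 ± 0.22, -0.36 ± 0.31 and 0.37 ± 0.21. With the animal as a block PLXNB3 was called higher (0.48, adjusted p = 0.0442). Over plexins and neuropilins together 5 of 11 were higher and 3 lower. Without scaling factors, where 10.5% of all rows were higher and 58.8% lower, 2 were higher and 5 lower.

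**Figure D3:**
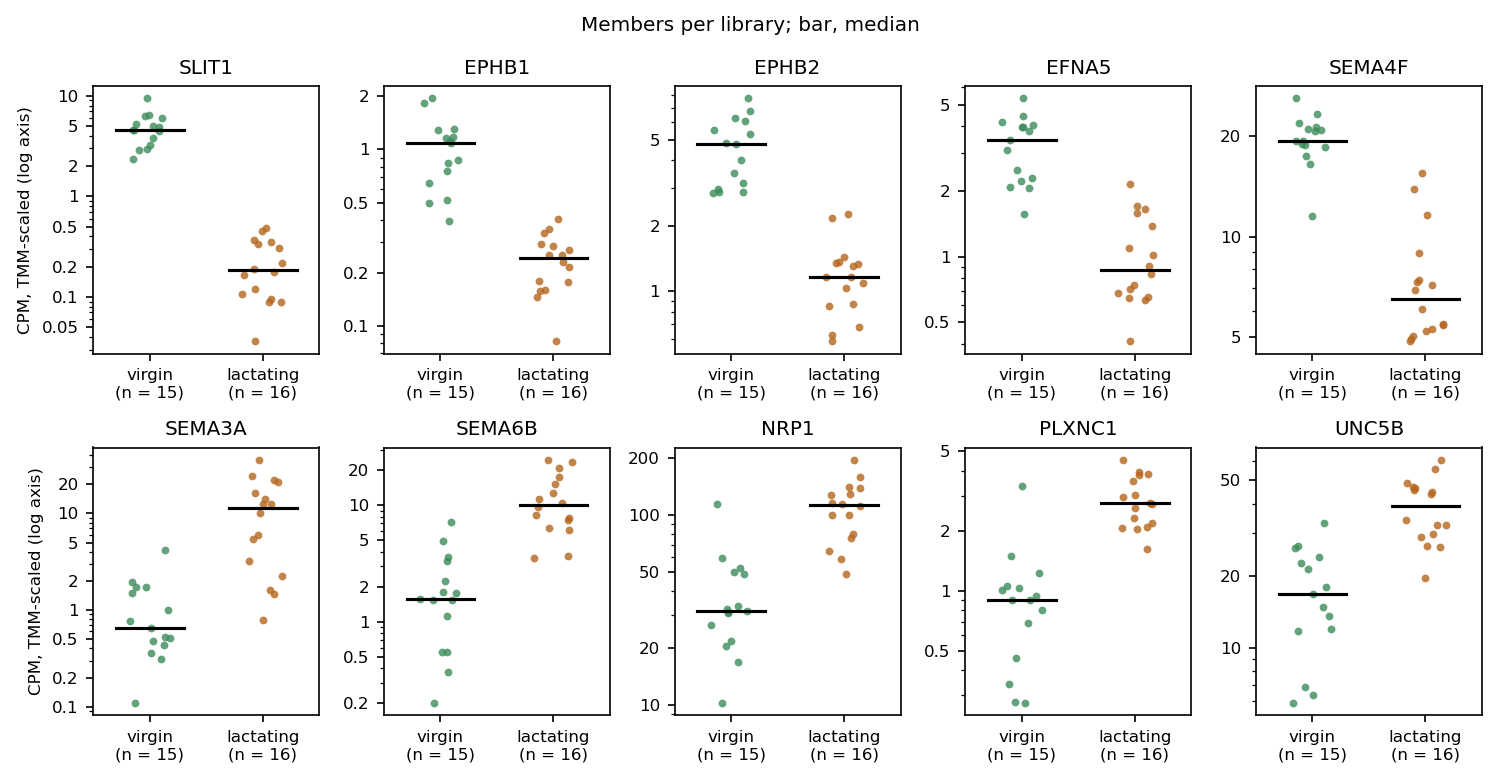
CPM per library (log axis) of 10 members, one point for each of 15 virgin and 16 lactating libraries, bars at the median. The stages do not overlap for SLIT1 and EPHB2; the single high virgin point of NRP1 (114.7 CPM) and PLXNC1 (3.34 CPM) is V502.

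Ephrins had 0 of 7 tested members higher and 3 lower, against 24.2% and 30.9% of all rows. EFNA5, a lipid-anchored ligand of EphA receptors, was measured at 1.57 to 5.36 CPM (median 3.45) in virgin and 0.410 to 2.16 CPM (median 0.872) in lactating libraries, and 12 of 16 lactating libraries lay below the virgin range. Its highest lactating value was in L478, and it fell in 14 of 15 animals by 1.62 ± 0.21 log2 units (adjusted p from edgeR = 1.70e-07). EFNA3, also lipid-anchored, was measured at 0.655 to 4.70 CPM (median 1.22) in virgin and 0.267 to 0.958 CPM (median 0.573) in lactating libraries and fell by 1.27 ± 0.25 log2 units (adjusted p from edgeR = 6.31e-05), with 11 of 16 lactating libraries below the virgin range. EFNA1, a ligand of EPHA2 that cytokines induce, was measured at 19.4 to 98.4 CPM (median 41.7) in virgin and 40.2 to 90.1 CPM (median 57.0) in lactating libraries, with a log2 fold change of 0.34 ± 0.21 (SE; adjusted p from edgeR = 0.183).

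The transmembrane ephrins moved little. EFNB1 was measured at 8.81 to 55.5 CPM (median 17.5) in virgin and 18.5 to 40.6 CPM (median 25.8) in lactating libraries, with a log2 fold change of 0.39 ± 0.19 (SE; adjusted p from edgeR = 0.0748). EFNB2, the partner of EPHB4, was measured at 140.4 to 999 CPM (median 399.6) in virgin and 246 to 403 CPM (median 331) in lactating libraries on counts shared with ARGLU1, and its log2 fold change was -0.47 ± 0.18 (SE; adjusted p from edgeR = 0.0229). Without V478 or without V490 EFNB2 was not called (-0.35 and -0.36). With the animal as a block EFNB2 was not called either (-0.34, adjusted p = 0.0819), while EFNA1 and EFNB1 were called higher, at 0.51 each (adjusted p = 0.0311 and 0.00832), so that 2 of 7 ephrins were then higher and 2 lower. EFNA2 and EFNA4 had log2 fold changes of -0.33 ± 0.26 and -0.41 ± 0.22 and were not called (adjusted p from edgeR = 0.286 and 0.104). Without L478 and L538 EFNA4 was called lower (-0.53, adjusted p from edgeR = 0.0449).

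Of 11 Eph receptors tested 6 were lower and 1 higher, against 30.9% and 24.2% of all rows. Without V502 5 were lower and 0 higher, and with the animal as a block 6 were lower and 2 higher. Without scaling factors, where 58.8% of all rows were lower, 8 were lower and 0 higher. EPHB2 (ENSBTAG00000045902), a receptor tyrosine kinase for B-type ephrins that sorts epithelial cells in the gut crypt, was measured at 2.83 to 7.76 CPM (median 4.74) in virgin and 0.584 to 2.25 CPM (median 1.16) in lactating libraries. No lactating library reached the lowest virgin one, all 15 animals fell, and the log2 fold change was -1.94 ± 0.20 (SE; adjusted p from edgeR = 1.44e-09), or 3.83-fold lower. The locus counted for EPHB2 spans 0.256 of the gene's RefSeq span. EPHB1, a related receptor, was measured at 0.392 to 1.95 CPM (median 1.08) in virgin and 0.0817 to 0.401 CPM (median 0.242) in lactating libraries. All but 1 of the lactating libraries lay below the virgin range, and its log2 fold change was -2.11 ± 0.23 (SE; adjusted p from edgeR = 4.82e-09).

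EPHB4, the venous receptor of EFNB2, was measured at 4.17 to 25.5 CPM (median 8.42) in virgin and 4.72 to 9.04 CPM (median 7.06) in lactating libraries. The lactating libraries lay within the virgin range, and EPHB4 fell in 11 of 15 animals, with a log2 fold change of -0.71 ± 0.21 (SE; adjusted p from edgeR = 0.00429). EPHB6, which lacks kinase activity, was measured at 6.92 to 77.6 CPM (median 13.2) in virgin and 5.02 to 30.6 CPM (median 15.7) in lactating libraries, with a log2 fold change of -0.36 ± 0.30 (SE; adjusted p from edgeR = 0.315). EPHB3 was at 0.22 ± 0.17 (adjusted p = 0.288), or 0.36 with the animal as a block (adjusted p = 0.0499), on a locus 2.12 times its RefSeq span.

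In the EphA class EPHA1 fell, EPHA2 rose slightly, and the call of EPHA3 was lost without 1 library. EPHA1, an epithelial receptor, was measured at 4.74 to 15.0 CPM (median 6.79) in virgin and 2.35 to 8.47 CPM (median 3.66) in lactating libraries, with 12 of 16 lactating libraries below the virgin range and a log2 fold change of -0.89 ± 0.20 (SE; adjusted p from edgeR = 0.000308). Across virgin libraries EPHA1 followed the luminal marker level, with r = 0.87 (adjusted permutation p = 0.000476), rho = 0.76 (adjusted permutation p = 0.00869) and r = 0.78 without the 2 farthest libraries. EPHA2, an EphA receptor of epithelium, was measured at 28.6 to 202 CPM (median 63.6) in virgin and 74.6 to 213 CPM (median 101) in lactating libraries and rose in 13 of 15 animals by 0.50 ± 0.21 (SE; adjusted p from edgeR = 0.0466), a call lost in 17 of the 31 fits that left out 1 library.

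EPHA3, a receptor of mesenchymal cells, was measured at 0.0259 to 20.1 CPM (median 0.314) in virgin and 0.0755 to 1.25 CPM (median 0.613) in lactating libraries. V502 held 20.1 CPM and the next virgin library 2.63 CPM. The log2 fold change of -1.78 ± 0.69 (SE; adjusted p from edgeR = 0.0294) became -0.12 without V502 (adjusted p = 0.854) and 0.12 with the animal as a block, and 11 of 15 animals were higher and 4 lower. EPHA4 fell by 0.62 ± 0.19 log2 units (adjusted p from edgeR = 0.00621), on a locus 3.18 times its RefSeq span. EPHA5 and EPHA7 had log2 fold changes of -0.93 ± 0.42 and 0.05 ± 0.13 and were not called (adjusted p from edgeR = 0.0600 and 0.760), though EPHA5 was with the animal as a block (-0.99, adjusted p = 0.0190).

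Ligands were set beside receptors of their own signalling family in 12 fixed pairs, and binding within a pair was not measured. Both partners were higher in 3 pairs, namely NTN4 with UNC5B, SEMA3A with NRP1, and SEMA3F with NRP2. Both were lower in 1 pair, EFNB2 with EPHB4. The partners were called in opposite directions in 2 pairs: SLIT2 (-0.44) with ROBO1 (0.94), and SEMA4D (0.74) with PLXNB1 (-0.86). In 4 pairs 1 partner was called, and in 2 pairs neither was. The rows of SEMA3F and EFNB2 carry other genes' counts as well. With the animal as a block EFNB2 and SLIT2 were not called, so that no pair was lower on both sides, while EFNA1 with EPHA2 joined the pairs higher on both sides (4 of 12) and EFNB1 with EPHB2 the opposite ones. Without scaling factors both were higher in 1 pair, SEMA3A with NRP1, both lower in 1, EFNB2 with EPHB4, and opposite in 1, SEMA7A with PLXNC1. NEO1 (neogenin), the second netrin receptor set beside NTN1, had a log2 fold change of 0.35 ± 0.16 (SE; adjusted p from edgeR = 0.0672). With the animal as a block NEO1 was called and NTN1 was not.

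Several members moved with the markers of other cell types from library to library within a stage. The mean log2 CPM of each of 3 marker lists was set against 37 members in each stage, 222 relations in all. In lactating libraries 19 of 37 members passed the adjusted permutation test for both Pearson's r and Spearman's rho with the endothelial level, 12 of them in the positive direction. With the myoepithelial and basal level 20 did (11 positive) and with the luminal level 16 (6 positive). In virgin libraries 6 passed with the endothelial level, all positive: SEMA6B, SEMA5A, SLIT3, PLXND1, NRP1 and UNC5B, and 6 with the myoepithelial and basal level, 5 of them positive. The lists themselves were tied in lactation: the endothelial level had r = -0.87 with the luminal level and r = 0.86 with the myoepithelial and basal level (rho = -0.86 and 0.85, adjusted permutation p of at most 0.00024, r = -0.76 and 0.78 without the 2 libraries farthest from the median). In virgin libraries the endothelial level had r = 0.61 with the myoepithelial and basal level (adjusted permutation p = 0.0223), rho = 0.61 (adjusted permutation p = 0.0256) and r = 0.51 without the 2 farthest libraries. A member's relation to one of these levels therefore cannot be told apart from its relation to the others in lactating libraries, nor can its relations to the endothelial and the basal level in virgin libraries. The values are shares of the same library, and whether endothelial RNA accounts for a member's change between stages was not tested.

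**Figure D4:**
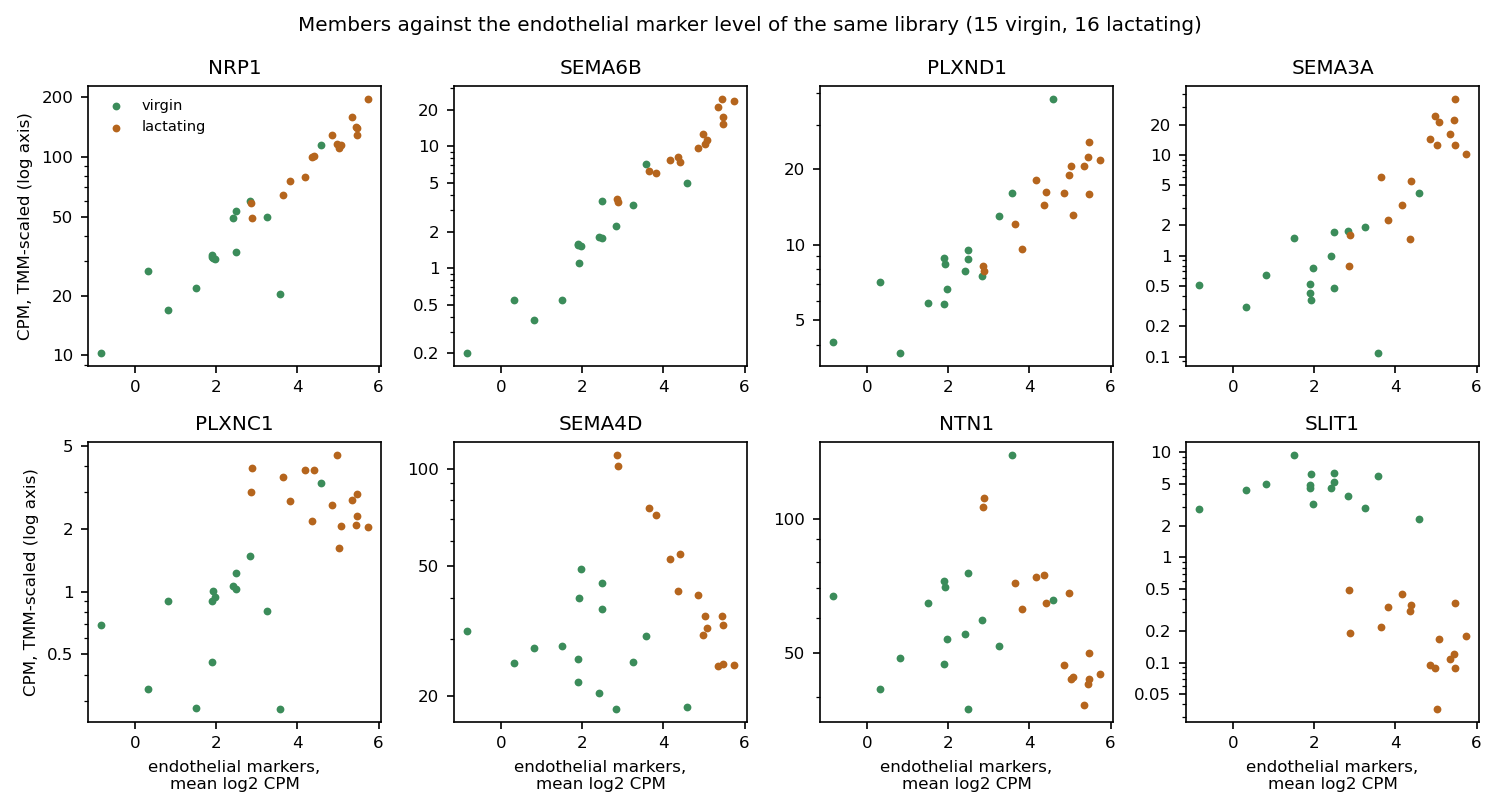
CPM of 8 members (vertical, log axis) against the mean log2 CPM of the 14 endothelial markers (horizontal) in the same library. NRP1, SEMA6B and PLXND1 rise with the endothelial level within each stage, and SEMA4D and NTN1 fall across the lactating libraries. SLIT1 is lower in every lactating library than in any virgin one.

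Across the 15 virgin libraries 11 of 37 members passed both tests with the luminal level, 7 of them positive. EPHA2 had r = 0.83 (adjusted permutation p = 0.000931), rho = 0.81 (adjusted permutation p = 0.00373) and r = 0.73 without the 2 farthest libraries. PLXNB1 had r = 0.81 (adjusted permutation p = 0.00165), rho = 0.82 (adjusted permutation p = 0.00259) and r = 0.73 without the 2 farthest libraries. In the other direction SEMA3C had r = -0.80 (adjusted permutation p = 0.000888), rho = -0.83 (adjusted permutation p = 0.00222) and r = -0.68 without the 2 farthest libraries. With the myoepithelial and basal level EFNB1 had r = 0.85 (adjusted permutation p = 0.000342), rho = 0.83 (adjusted permutation p = 0.00251) and r = 0.75 without the 2 farthest libraries. In lactating libraries SEMA3C rose with the basal level, with r = 0.85 (adjusted permutation p = 0.000483), rho = 0.87 (adjusted permutation p = 0.00127) and r = 0.81 without the 2 farthest libraries.

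Without scaling factors all rows shifted by -0.48 in their median, and the median of the members came to -0.49. The rises still called were those of SEMA3A (2.66), SEMA6B (1.89), UNC5C (1.07), PLXNC1 (1.05), NRP1 (0.89), UNC5B (0.62) and SEMA6D (0.46). All 17 falls were larger there, SLIT1 at -4.74 among them. The values given elsewhere are with scaling factors.

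**Figure D5:**
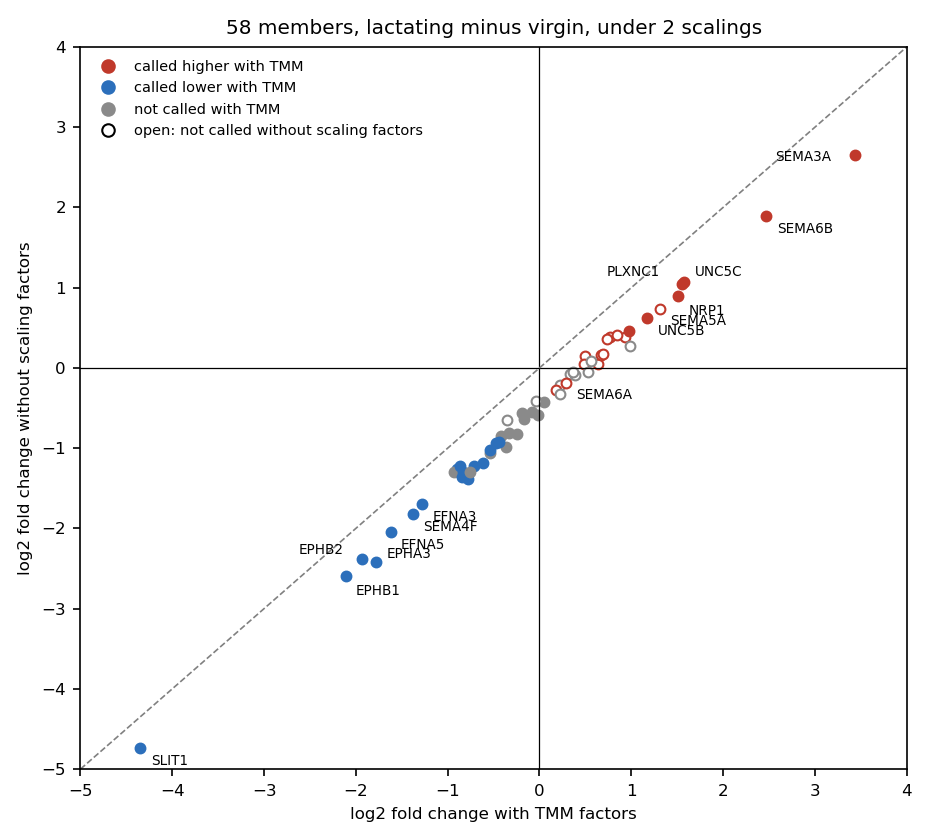
Log2 fold change of the 58 members with TMM factors (horizontal) and without scaling factors (vertical); the dashed line marks equal values and open points are not called without factors. The points lie below the line, and 7 of the 19 rises stay called.

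Downstream genes of the families were read from 4 lists and compared with the 24.2% of rows called higher and 30.9% called lower. Of 17 genes of SLIT and ROBO signalling 4 rose and 6 fell. SRGAP1, a GTPase-activating protein that binds ROBO1, was measured at 25.0 to 113 CPM (median 67.5) in virgin and 14.1 to 32.7 CPM (median 19.3) in lactating libraries and fell in 15 of 15 animals by 1.79 ± 0.16 log2 units (adjusted p from edgeR = 1.98e-10). PAK1, a kinase downstream of RAC1, fell by 1.44 ± 0.17 log2 units (adjusted p from edgeR = 1.48e-08). CXCR4, a chemokine receptor that SLIT signalling modulates and that leukocytes and endothelium carry, rose by 2.52 ± 0.25 (SE; adjusted p from edgeR = 1.06e-09).

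Of 21 genes of semaphorin and plexin signalling 8 rose and 8 fell. MICAL3 and MICAL2, monooxygenases that act on actin downstream of plexins, fell by 1.38 ± 0.10 and 1.39 ± 0.20 log2 units (adjusted p from edgeR = 3.52e-12 and 8.61e-07), and the CPM ranges of MICAL3 did not overlap. RND1, a small GTPase that binds plexins, rose by 2.18 ± 0.34 (SE; adjusted p from edgeR = 2.97e-06). Of 20 genes of ephrin and Eph signalling 11 rose and 4 fell, among them NGEF (ephexin), a guanine nucleotide exchange factor that acts downstream of EphA receptors, at -2.32 ± 0.31 (SE; adjusted p from edgeR = 2.40e-07). SDCBP (syntenin), an adaptor that binds ephrin-B tails, rose by 0.90 ± 0.09 (SE; adjusted p from edgeR = 1.59e-09) with no overlap of the CPM ranges, and SH2D3C, an adaptor of Eph receptors, by 1.42 ± 0.28 (SE; adjusted p from edgeR = 8.94e-05).

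Of 21 genes of netrin signalling 2 rose and 6 fell. DSCAML1, an adhesion molecule related to the netrin receptor DSCAM, was measured at 0.180 to 1.57 CPM (median 0.698) in virgin and 0 to 0.277 CPM (median 0.0701) in lactating libraries and had a log2 fold change of -3.20 ± 0.38 (SE; adjusted p from edgeR = 2.52e-08), with a fall in 15 of 15 animals. NTNG1 (netrin-G1), a membrane-anchored protein that does not bind DCC or UNC5, was measured at 0.661 to 5.64 CPM (median 2.12) in virgin and 0.0362 to 0.919 CPM (median 0.292) in lactating libraries and had a log2 fold change of -2.74 ± 0.35 (SE; adjusted p from edgeR = 8.75e-08). ADGRL1, a latrophilin, fell by 0.77 ± 0.10 log2 units (adjusted p from edgeR = 2.37e-07). No test of a list was made.

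Levels of different members were not ranked against each other here. The deposited RPKM values divide by the genomic length of the counted locus, introns included, and not by transcript length, as judged from lengths recovered for 13193 rows (whole numbers to within 1.40e-09; median ratio to the RefSeq span 1.00). Some counted loci covered only part of the RefSeq span. The ratio was 0.256 for EPHB2, 0.407 for SEMA6B, 0.447 for UNC5C, 0.454 for ROBO1, 0.483 for PLXNB2 and 0.564 for PLXNA3, among others. Of the 62 genes 6, namely SEMA3F, SEMA4A, SEMA4B, SEMA7A, EFNB2 and ROBO2, carry the counts of another row as well, and without them 17 of 52 members were higher and 16 lower.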

How the data were processed

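RNA was sequenced from 31 libraries of bovine mammary epithelial organoids, grouped by the stage in the labels into 15 virgin and 16 lactating samples. The authors deposited unnormalized read counts per gene and, in another table, RPKM, which the authors divided by the genomic span of each locus, together with their log2 fold changes (virgin minus lactating) and adjusted p-values. Per the submitters' processing notes HISAT2 2.0, StringTie 1.3.2, featureCounts 1.5.2, edgeR and build UMD 3.1 were used, with settings not given in the sources used here. Libraries were strand-specific per the labels' protocols, but whether counting used strand is not given, so antisense and overlapping genes may share reads. Because the gene table at hand is of another build, no coordinates are given and it served only for names and spans.

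The counts were fitted in R 4.3.3 with edgeR 4.0.16. The low rows were removed with filterByExpr (minimum count 10, minimum total 15), scaled with TMM and fitted by the robust quasi-likelihood method with stage as the only term, over all 13180 tested rows. Calls were made at a Benjamini-Hochberg adjusted p under 0.05, and changes over 2-fold were tested with glmTreat. SE is the log2 fold change divided by the square root of F. Correlations used log2 CPM (prior count 2) and two-sided permutation p-values (100000 resamples), adjusted over each family. The steps were tested on simulated data.

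Within each class the 2 largest called rises and falls whose mean log2 CPM was not below 0, and the member with the highest mean RPKM were named, with 12 fixed pairs and the 3 downstream genes of each list with the smallest p. CPM ranges of EPHB1, UNC5C, SEMA3D and PLXNA3 were added after their values were seen. The other tested members are given by their log2 fold changes, so that each is accounted for. RPKM, divided by locus span, served only to pick the highest member of a class. The members and lists were chosen with earlier results of these data known. Replicate numbers are animal numbers in the labels and pair the stages: own-animal pairs correlated at 0.0702 to 0.392 (mean 0.221), against -0.016 for other animals. For 9 of the 15 pairs the lactating library correlated best with the virgin library of its own animal, and for the rest with that of another. Alternatives were the animal as a block, DESeq2 1.42.0 and its size factors, no scaling factors, limma-voom (limma 3.58.1), other filters, identical rows taken once, and samples left out. The depth of single libraries limits the members under about 1 CPM most.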

Additional observations from a re-analysis of the deposited data

How the results depend on the processing

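Of the 36 members called, 20 kept their call and direction under each alternative in which they were tested, and 26 did apart from the fit without scaling factors. UNC5C, EFNA3 and EPHB1, among the 20, did not pass the filter of 1 CPM and were not tested there. Without scaling factors 7 members were higher and 29 lower (10.5% and 58.8% of all rows), with 3 ligands higher and 15 lower and 4 receptors higher and 14 lower. There the log2 fold changes of SEMA6A (-0.19), PLXNB2 (-0.28), SLIT3 (-0.32), EPHB3 (-0.22), EPHA7 (-0.43), EFNA1 (-0.0751), EFNB1 (-0.0876), SEMA6C (-0.0526) and PLXNB3 (-0.0514) turned negative. With the animal as a replicate block, over 30 libraries, 24 members were higher and 15 lower and 5 rose by more than 2-fold (SEMA3A, SEMA6B, PLXNC1, NRP1 and SEMA5A); EPHA3 (0.12), SEMA3E (0.0887) and SEMA7A (0.0331) turned positive. SEMA3E (0.0992) and SEMA7A (0.0616) did so with limma-voom, and SEMA7A (0.0132) without L478 and L538. Without the 5 animals whose virgin title carries a letter, 14 members were higher and 14 lower, with 5 receptors higher. SLIT2, SEMA4B, NRP2, PLXND1, PLXNB2, EFNB2, EPHA2 and EPHA4 were not called in that fit. Over all rows 2416 of 13228 were higher there and 3063 lower, against 3189 and 4069 of 13180 in the main fit. The cause was not tested, and fewer samples were fitted. When each library was left out in turn, 16 to 21 members were higher and 16 to 19 lower, 2 to 7 rose and 4 to 5 fell by more than 2-fold, the 7 without V502. The share of all rows that changed by more than 2-fold was counted only in the main fit. In those fits the sign of EPHA7 (-0.00821 to 0.129), NTN1 (-0.115 to 0.0922), SEMA3E (-0.0996 to 0.115) and SEMA7A (-0.14 to 0.0774) changed, none of them called. EPHA3 lost its call without V502. Stage, age, parity and sampling time cannot be told apart in these data, and markers of endothelial, immune and stromal cells differed between libraries.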

Other observations

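Whether a cow with a high level of a member as a virgin also had a high level in lactation was asked of all 58 tested members over the 15 animals with both stages. No member passed the permutation test after adjustment over 58 relations. SEMA6A came nearest, with r = 0.75 (permutation p = 0.00126, adjusted p = 0.0731), rho = 0.78 (permutation p = 0.00104, adjusted p = 0.0603) and r = 0.62 without the 2 farthest animals. NTN1 had r = -0.12 and rho = -0.12 (adjusted permutation p = 0.794 and 0.842).

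The libraries holding the highest value of a member were unevenly spread, as were those holding the highest value over all tested rows. L595, which had the highest summed endothelial markers of the lactating libraries, held the highest lactating level of 13 of 58 members (22.4%, against 9.03% of all tested rows), among them NRP1, NRP2, ROBO1, UNC5B, SEMA5A and PLXNA2. L538 held the highest of 11 (19.0%, against 15.0% of all rows), among them SEMA4D, SEMA4A, SEMA4B, PLXNB1, PLXNA1, EPHA1 and SLIT1, and L478 that of 5 (8.62%, against 11.1% of all rows): NTN1, SEMA4F, EFNA5, EPHA2 and EPHB6. Of the virgin libraries V479, which had the highest summed luminal markers, held the highest level of 16 members (27.6%, against 27.1% of all rows), among them EFNA1, EFNA3, EFNA5, EFNB1, EPHA1, EPHA2, EPHB2 and EPHB6. V502 held the highest of another 16 members, against 10.9% of all rows. None of these shares was tested.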
